A study of Mus musculus with 12 samples.

Results

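The cytochrome P450 genes of families 1 to 4 were examined in RNA sequencing of mouse rectum. Members were chosen by name alone: Cyp, a digit from 1 to 4, a single letter and a number. Of 84 names that began this way, 4 pseudogenes were left out, as were Cyp2ab1, which has a pair of letters, and the antisense transcript Cyp4x1os. That left 78 members among 27785 genes, with 3, 47, 9 and 19 in families 1, 2, 3 and 4. The deposited unit is FPKM, a fragment count divided by the length of the transcript and by the size of the library, so levels of different genes can be set side by side per length. A gene was tested where 2 or more of the 12 libraries reached 1 FPKM, which 57 members did (3, 37, 5 and 12 by family). The 21 members that did not pass never exceeded 2.21 FPKM, a value reached by Cyp2c66 in Lgr5-Apc replicate 4. No member was listed at 0 in every library.

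P450 enzymes are haem proteins, most of them anchored in the endoplasmic reticulum, that insert an oxygen atom into a substrate with electrons passed from NADPH by the reductase Por. Members of the first 3 families oxidise drugs, dietary and microbial chemicals, steroids and polyunsaturated fatty acids, while those of the fourth mostly hydroxylate fatty acids and eicosanoids at the far end of the chain. Gut epithelium carries a set of its own as a metabolic barrier, and the epidermis carries another that makes skin lipids. Sensors of foreign chemicals (Ahr, the pregnane X receptor Nr1i2 and the constitutive androstane receptor Nr1i3) and the gut and liver factor Hnf4a are known to switch many of these genes on.

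The mice differed in which cells could lose the tumour suppressor Apc, a brake on the Wnt pathway. CreER is a Cre recombinase that tamoxifen activates. The Lgr5-Apc group (n = 4) had genotype Lgr5creER;APC flox, named after a marker of intestinal stem cells. The Cdx2-Apc group (n = 3) had CDX2creER;APC flox, named after a transcription factor of hindgut epithelium, and the Lgr5-Cdx2-Apc group (n = 2) had both drivers with floxed Apc. The control group (n = 3) is titled WT, but its genotype field reads CDX2creER;APC flox (WT), so what these animals carried could not be settled. The treatment protocol given for each sample is tamoxifen at 25 mg/kg, repeated over 5 days, whereas the control samples carry no treatment characteristic, so genotype and tamoxifen may differ together in each comparison with control. Age, strain and sex are not among the labels used here. Nothing in the labels says whether samples came from separate animals, so p-values measure only the spread between these samples, which may be technical.

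The libraries differed in their levels of tissue marker genes within and between groups, and the results below should be read beside these levels. Markers of squamous epithelium, the stratified lining of skin and anal canal, summed to 46.8 to 2842 FPKM in control, 33.6 to 16655 in Lgr5-Apc, 15.6 to 591 in Cdx2-Apc, and 10719 and 19499 in Lgr5-Cdx2-Apc. Of these 10 markers, 2 were called higher in Lgr5-Cdx2-Apc against control (Lor and Ivl). Within Lgr5-Apc, replicates 2 and 3 held the squamous signal, and Lor, Ivl and Dsg3 were listed at 0 in replicate 4. Columnar gut markers summed to 3422 to 5429 FPKM in control and 4665 to 5669 in Cdx2-Apc, but to 1136 in Lgr5-Apc replicate 2 and to 998 and 181 in Lgr5-Cdx2-Apc, where 7 of 8 were called lower than in control. All 6 smooth muscle markers were also lower there, at a sum of 72.1 and 48.5 FPKM against 2925 to 3583 in control, and 4 of the 5 tested skeletal muscle markers were higher. In bulk tissue, fewer cells of a type and less RNA per cell cannot be told apart. Sex-linked genes also followed a group: Xist was at most 1.12 FPKM in the Cdx2-Apc libraries and at least 61.1 in the others, so sex and genotype cannot be told apart in comparisons with Cdx2-Apc.

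Together the 78 members summed to between 409 and 2901 FPKM, or 0.0689% to 0.579% of a library's total FPKM, which ran from 451297 to 728462. The lowest sum was in Lgr5-Cdx2-Apc replicate 2 and the highest in Lgr5-Apc replicate 4. Of the members, 27 reached 10 FPKM in at least 1 library and 17 stayed below 1 FPKM in all 12. One gene, Cyp2c55, dominated most libraries. It supplied 28.5% to 47.3% of the summed P450 signal in control, 39.9% to 57.3% in Cdx2-Apc and 80.4% in Lgr5-Apc replicate 4, but 7.75% in Lgr5-Apc replicate 2 and 10.3% in Lgr5-Cdx2-Apc replicate 2.

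**Figure D1:**
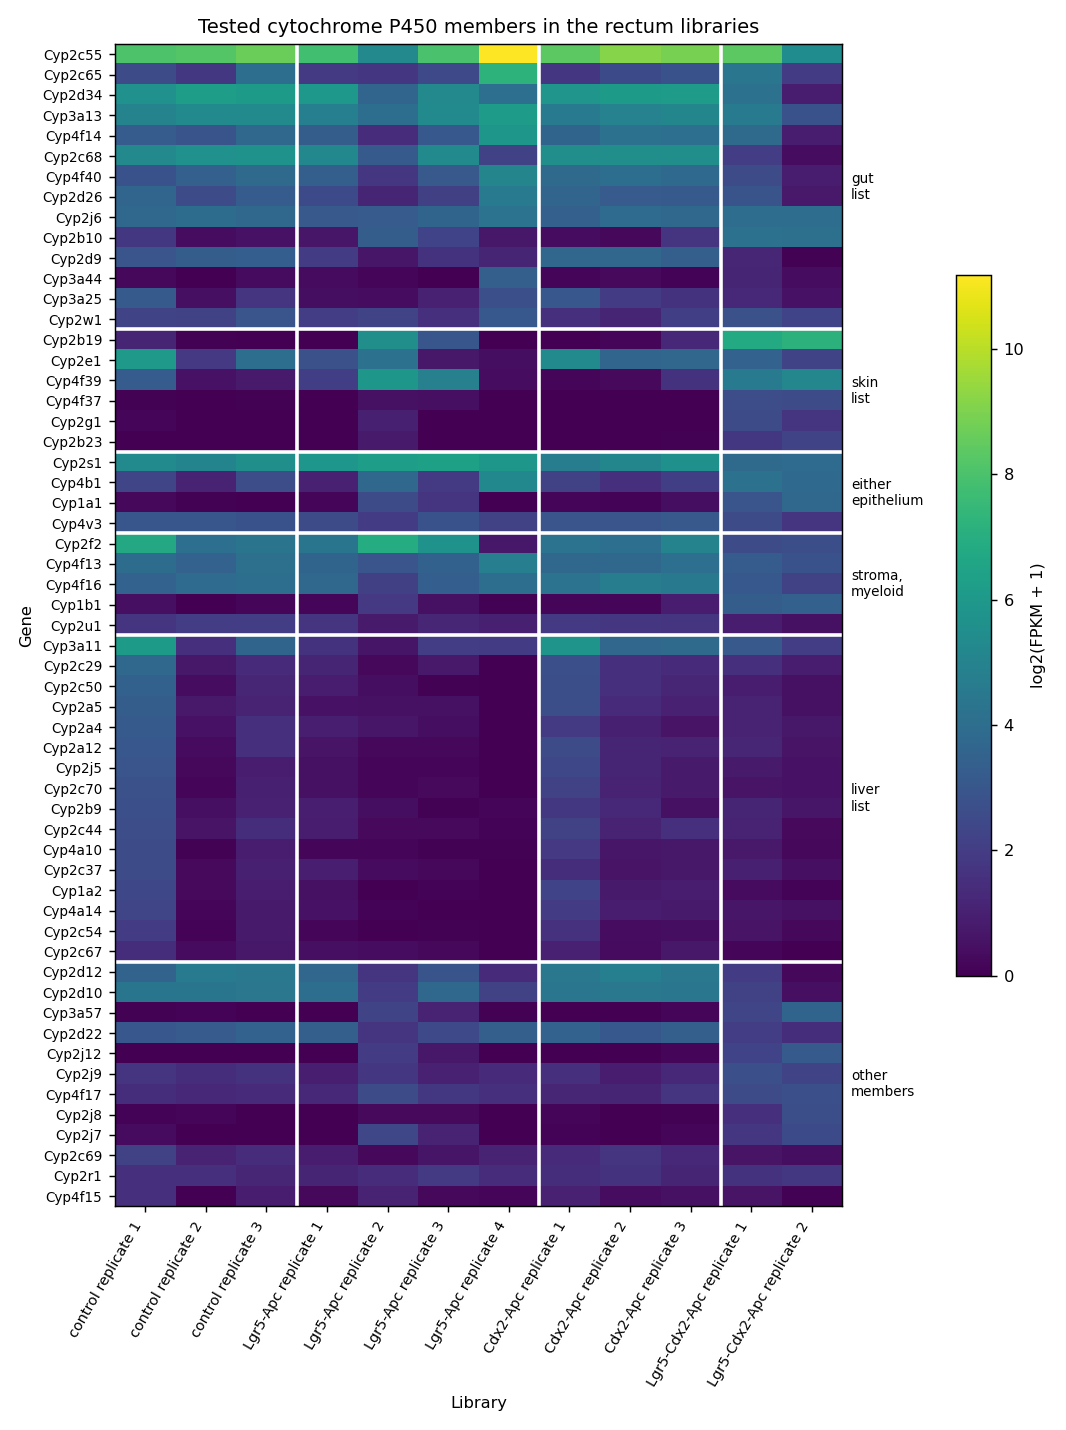
Level of the 57 tested P450 members (rows) in the 12 libraries (columns), as log2(FPKM + 1), with white lines between groups of libraries and between lists of genes. Each gene stands in the first list that holds it, so Cyp2e1, a member of both the skin and the liver list, is drawn under skin. Cyp2c55 is the brightest row in most libraries, and the liver list is brightest in control replicate 1 and Cdx2-Apc replicate 1.

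Differences between groups were tested with limma on log2(FPKM + 1) over all 17360 genes that passed the filter, and a gene is called where its Benjamini-Hochberg adjusted p is below 0.05. Differences are given on that log2 scale, which understates the change of genes near 0. With both drivers, the skin-type P450 Cyp2b19, the Ahr targets Cyp1a1 and Cyp1b1 and members of the Cyp2j series rose, while Cyp2c68, most of the Cyp2d series and Cyp2s1 fell. Against control, 13 members were called higher and 8 lower in Lgr5-Cdx2-Apc, 36.8% of the 57 tested, beside 19.1% of all genes tested (10.5% higher and 8.55% lower). The median difference was -0.72 over the members and 0.07 over all genes. Against Cdx2-Apc, 13 members were higher and 9 lower (38.6%, beside 23.8% of all genes, 12.1% higher and 11.7% lower), and against Lgr5-Apc, 9 were higher and 1 lower (17.5%, beside 8.99% of all genes, 5.22% higher and 3.77% lower). The 3 comparisons share the 2 Lgr5-Cdx2-Apc libraries and are not independent. Called in all 3 were 9 higher members (Cyp1b1, Cyp2b19, Cyp2b23, Cyp2g1, Cyp2j8, Cyp2j9, Cyp2j12, Cyp3a57 and Cyp4f37) and 1 lower member, Cyp2s1. Cyp2b23, Cyp2g1, Cyp2j8 and Cyp4f37 reached 1 FPKM in no library outside Lgr5-Cdx2-Apc, and Cyp1b1 and Cyp2j12 only in Lgr5-Apc replicate 2. These members passed the filter only through the group where they were high, so the counts of higher members are partly fixed by that filter. Some of the calls were not stable. Against Lgr5-Apc, Cyp3a57 lost its call in 20 and Cyp2j12 in 17 of the 27 alternatives that tested them. Against control, Cyp2j9 lost its call in 17 of 27, as did Cyp2j7, called in 2 of the 3 comparisons, in 15 of 27. Cyp2d22, also called in 2 of the 3 comparisons, lost its call against control in 14 of 28.

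These counts changed when single libraries were left out or a marker score was added as a covariate, and the share of all genes called moved with them. Without Lgr5-Cdx2-Apc replicate 2, the call against control held for 5 higher and 0 lower members (8.77% of members, beside 2.47% of all genes), with 6 members called against Cdx2-Apc (10.5% beside 2.91%) and 5 against Lgr5-Apc (8.77% beside 1.64%). Leaving out control replicate 3 gave 13 members against control (22.8% beside 5.73%), and leaving out Cdx2-Apc replicate 2 gave 14 against Cdx2-Apc (24.6% beside 8.95%). Against Lgr5-Apc, leaving out Lgr5-Apc replicate 2 raised the count from 10 to 21 (36.8% beside 25.7%). Leaving out Lgr5-Apc replicate 1, Lgr5-Apc replicate 3 or Lgr5-Cdx2-Apc replicate 1 lowered it to 6 (10.5%, beside 4.01%, 3.17% and 3.4% of all genes). With the columnar marker score as a covariate, 1 member remained called in each of the 3 comparisons, Cyp4f37, and 0.409% to 0.536% of all genes were called. That score was 6.59 and 4.01 in Lgr5-Cdx2-Apc, 6.45 in Lgr5-Apc replicate 2 and at least 8.18 in the other libraries. It nearly follows the group, so this fit cannot tell composition and genotype apart. With the squamous score, 10, 9 and 6 members were called against control, Lgr5-Apc and Cdx2-Apc, beside 3.39%, 5.12% and 1.99% of all genes.

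**Figure D2:**
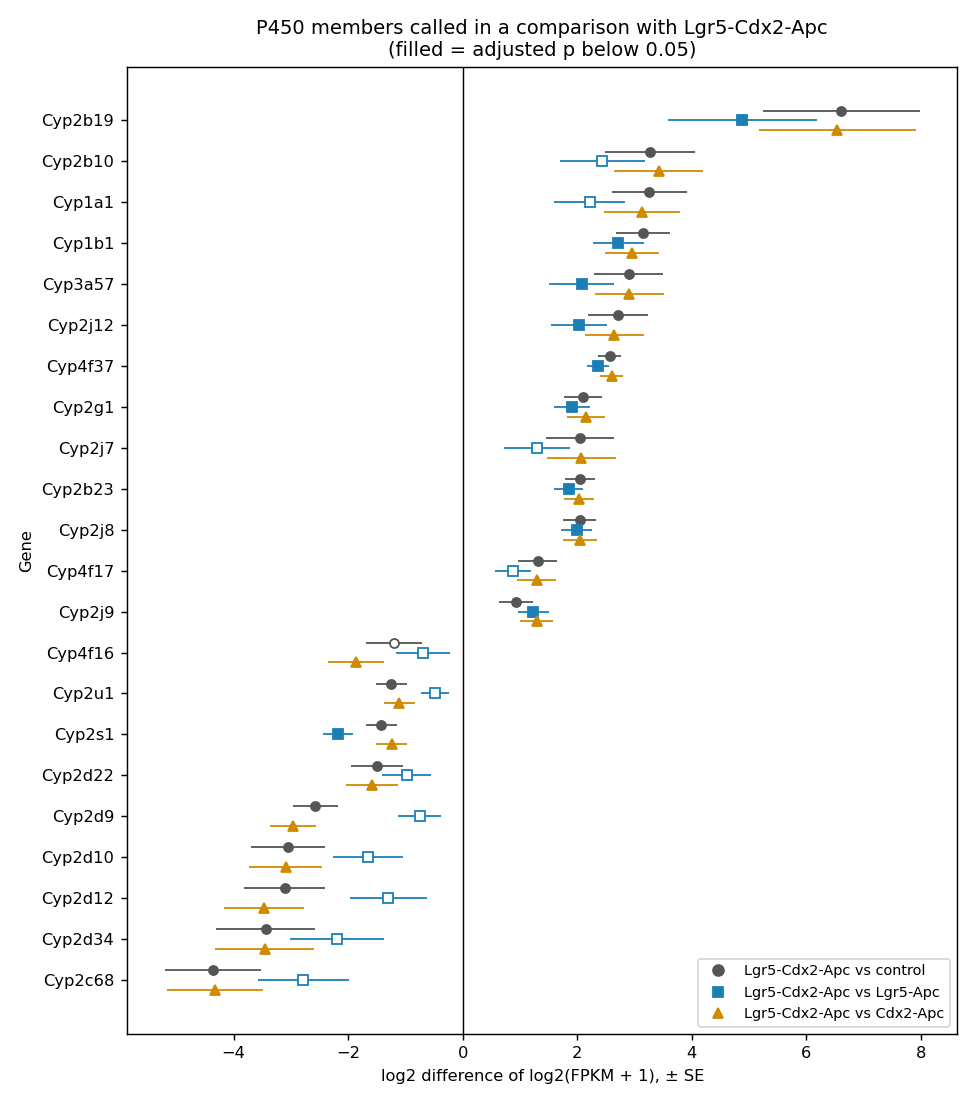
Difference in log2(FPKM + 1), with its standard error as a bar, between Lgr5-Cdx2-Apc and each other group for the 22 members called in at least 1 of these comparisons (filled symbols are called). Cyp2b19 lies farthest to the right, at 6.61 against control, and Cyp2c68 farthest to the left, at -4.36.

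Gut members came from a list of 15 genes known from intestinal epithelium, of which 14 were tested. Against control, 3 fell in Lgr5-Cdx2-Apc (Cyp2c68, Cyp2d9 and Cyp2d34), 1 rose (Cyp2b10) and 10 were not called. Of all genes tested, 8.55% fell and 10.5% rose in that comparison. The gut members had a median difference of -1.13. Their summed level was 446 to 654 FPKM in control and 522 to 786 in Cdx2-Apc, then 460 and 91.2 in Lgr5-Cdx2-Apc. In Lgr5-Apc the sum spread from 103 in replicate 2 to 2732 in replicate 4.

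Cyp2c55, an epoxygenase of arachidonic acid that is abundant in colon, stood at 264, 289 and 413 FPKM in control, 220, 37.9, 250 and 2331 in Lgr5-Apc replicates 1 to 4, 328, 567 and 478 in Cdx2-Apc and 328 and 42 in Lgr5-Cdx2-Apc. The groups overlapped: the first Lgr5-Cdx2-Apc library lay within the control range and the second below it, and no difference was called (log2 difference -1.41 ± 1.35 (SE), adjusted p = 0.471). Its neighbour Cyp2c65 was 4.84, 2.54 and 15.3 FPKM in control, 2.74, 2.44, 4.48 and 151 in Lgr5-Apc, 2.45, 4.77 and 6.07 in Cdx2-Apc and 19.9 and 2.97 in Lgr5-Cdx2-Apc, again with its single high value in Lgr5-Apc replicate 4. Cyp2c65 shares 96.4% of its transcript sequence with Cyp2c66, so the split of fragments between that pair is uncertain.

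Cyp2c68, of the same family and chromosome, behaved otherwise. It was 37.5, 50 and 52.7 FPKM in control and 44.9, 45.8 and 44.8 in Cdx2-Apc, a narrow range, but 36.8, 8.06, 39 and 3.64 in Lgr5-Apc and 3.11 and 0.296 in Lgr5-Cdx2-Apc. The ranges of control and Lgr5-Cdx2-Apc did not overlap and the fall was the largest among the members (log2 difference -4.36 ± 0.84 (SE), adjusted p = 0.0106). Lgr5-Apc replicate 4, where Cyp2c55 and Cyp2c65 were at their highest, had the lowest Cyp2c68 of its group. Cyp2c68 is 98.0% identical to Cyp2c40, which did not pass the filter, so reads of the pair could have been divided by the authors' counting.

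Cyp2c68, at most 3.11 FPKM in Lgr5-Cdx2-Apc, was called lower against control and Cyp2c55 was not. Cyp2c55 was also low in Lgr5-Cdx2-Apc replicate 2, at 42 FPKM beside 264 to 413 in control. The stretch before the start of these 2 genes is shown as a description. Each is the 250 bases up to the transcription start, 5′ to 3′ on the gene's strand, from RefSeq on GRCm38.p6, at chr19:39006769-39007018 (plus strand) for Cyp2c55 and chr19:39741102-39741351 (minus strand) for Cyp2c68. Capitals mark a TATA box (TATAAA) 29 bases before the start of Cyp2c55, and in Cyp2c68 the core of the dioxin response element (GCGTG, which reads CACGC here because it lies on the opposite strand) 130 bases and an HNF4 site (CAAAGTCCA) 77 bases before the start.
Cyp2c55: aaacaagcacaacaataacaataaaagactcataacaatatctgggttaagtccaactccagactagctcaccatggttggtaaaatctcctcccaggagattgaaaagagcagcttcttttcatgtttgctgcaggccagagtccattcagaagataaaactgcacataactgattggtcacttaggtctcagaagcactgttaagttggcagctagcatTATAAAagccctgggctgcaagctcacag
Cyp2c68: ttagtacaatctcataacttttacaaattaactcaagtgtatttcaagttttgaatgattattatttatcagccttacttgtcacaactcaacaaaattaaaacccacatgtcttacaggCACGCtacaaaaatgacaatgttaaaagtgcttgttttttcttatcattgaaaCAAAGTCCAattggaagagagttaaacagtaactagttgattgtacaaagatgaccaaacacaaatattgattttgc

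The Cyp2d series, whose human relative metabolises many drugs, fell most evenly. Cyp2d34 was 49.4, 74.2 and 67.6 FPKM in control, 62.1, 11.6, 37.3 and 16.1 in Lgr5-Apc, 55.6, 67.1 and 69.2 in Cdx2-Apc and 17.4 and 0.872 in Lgr5-Cdx2-Apc (log2 difference -3.44 ± 0.86 (SE), adjusted p = 0.0241). Cyp2d9 was 6.62, 8.97 and 9.23 FPKM in control, 3.02, 0.617, 2.16 and 1.25 in Lgr5-Apc, 12, 11.9 and 9.52 in Cdx2-Apc and 1.28 and 0.0557 in Lgr5-Cdx2-Apc (log2 difference -2.57 ± 0.40 (SE), adjusted p = 0.00429). Every Lgr5-Apc library lay below every control library for Cyp2d9, which a test over all genes did not call (log2 difference -1.82 ± 0.34 (SE), adjusted p = 0.36). Cyp2d10 and Cyp2d12, which are outside the gut list, followed the same order. Cyp2d10 was 19.4, 19.4 and 20.8 FPKM in control and 3.56 and 0.388 in Lgr5-Cdx2-Apc (log2 difference -3.05 ± 0.64 (SE), adjusted p = 0.014), with 15.6, 2.87, 12.5 and 3.61 in Lgr5-Apc and 20.2, 21 and 20.1 in Cdx2-Apc. Cyp2d12 was 10.7, 24.4 and 21 in control and 2.99 and 0.17 in Lgr5-Cdx2-Apc (log2 difference -3.11 ± 0.70 (SE), adjusted p = 0.0175), with 12, 2.21, 6.6 and 1.51 in Lgr5-Apc and 21, 27 and 21.4 in Cdx2-Apc. Cyp2d22 fell less, from 7.23, 8.34 and 10.4 to 3.12 and 1.77 FPKM (log2 difference -1.50 ± 0.45 (SE), adjusted p = 0.0415), with 9.37, 2.3, 4.61 and 9.38 in Lgr5-Apc and 10.4, 7.59 and 9.45 in Cdx2-Apc. Cyp2d26 was not called: it was 11.5, 5.15 and 8.57 in control, 4.63, 1.24, 3.31 and 24.3 in Lgr5-Apc, 11.6, 8.3 and 8.1 in Cdx2-Apc and 6.5 and 0.688 in Lgr5-Cdx2-Apc (log2 difference -1.35 ± 0.89 (SE), adjusted p = 0.291). Cyp2d9, Cyp2d10, Cyp2d12 and Cyp2d34 each share 91.6% to 94.4% of their sequence with another Cyp2d gene, so the level of any single one is less certain than that of the series. The calls against control were not kept without Lgr5-Cdx2-Apc replicate 2, the library with the lowest columnar markers, which leaves 1 library in that group. Calls were kept in 14 (Cyp2d22) to 26 (Cyp2d9) of 28 alternatives against control, where the Cyp2d22 difference ran from -1.82 to -0.14. Against Cdx2-Apc, calls were kept in 19 (Cyp2d22) to 27 (Cyp2d9) of 28.

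The other gut genes gave no call in any comparison except Cyp2b10. Cyp3a13, the main Cyp3a gene of mouse intestine, was 31.1, 40.4 and 39.5 FPKM in control, 27.3, 15.4, 38.4 and 69.2 in Lgr5-Apc, 23.5, 29.9 and 34.6 in Cdx2-Apc and 23 and 6.11 in Lgr5-Cdx2-Apc (log2 difference -1.53 ± 0.58 (SE), adjusted p = 0.0865). Cyp4f14, which inactivates leukotriene B4 and related lipids, was 8.49, 6.48 and 12.2 in control, 8.74, 1.68, 7.39 and 59.1 in Lgr5-Apc, 11.3, 17 and 15.8 in Cdx2-Apc and 13.8 and 0.817 in Lgr5-Cdx2-Apc. Cyp4f40, from the same cluster, was 6.01, 9.8 and 13.4 in control, 9.49, 2.41, 7.7 and 33.4 in Lgr5-Apc, 13.8, 15.4 and 13.2 in Cdx2-Apc and 5 and 0.839 in Lgr5-Cdx2-Apc. Both Cyp4f genes had their highest value in Lgr5-Apc replicate 4 and their lowest in Lgr5-Cdx2-Apc replicate 2. Cyp2j6, an epoxygenase of intestine, was the steadiest, at 12.3, 14.3 and 12.4 FPKM in control, 7.8, 8.38, 11 and 18 in Lgr5-Apc, 9.64, 14.2 and 12.3 in Cdx2-Apc and 15.1 and 15.2 in Lgr5-Cdx2-Apc. Cyp2w1, known from fetal gut and colon tumours, was 3.94, 3.52 and 6.82 in control, 3.07, 3.97, 1.97 and 7.51 in Lgr5-Apc, 1.88, 1.24 and 3.2 in Cdx2-Apc and 5.85 and 3.8 in Lgr5-Cdx2-Apc. The low Cyp3a genes were irregular: Cyp3a44 was at 9.39 FPKM in Lgr5-Apc replicate 4 and at most 1.24 elsewhere, and Cyp3a25 ranged from 0.279 to 7.86, its highest values being in control replicate 1 and Cdx2-Apc replicate 1. Cyp2b10, the classic target of the constitutive androstane receptor, went the other way from its list, with 2.53, 0.277 and 0.479 FPKM in control, 0.607, 8.81, 3.77 and 0.646 in Lgr5-Apc, 0.299, 0.166 and 2.21 in Cdx2-Apc and 17.5 and 16.7 in Lgr5-Cdx2-Apc (log2 difference 3.27 ± 0.78 (SE), adjusted p = 0.0213). Its higher values in Lgr5-Apc were in replicates 2 and 3, the squamous-rich libraries.

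**Figure D3:**
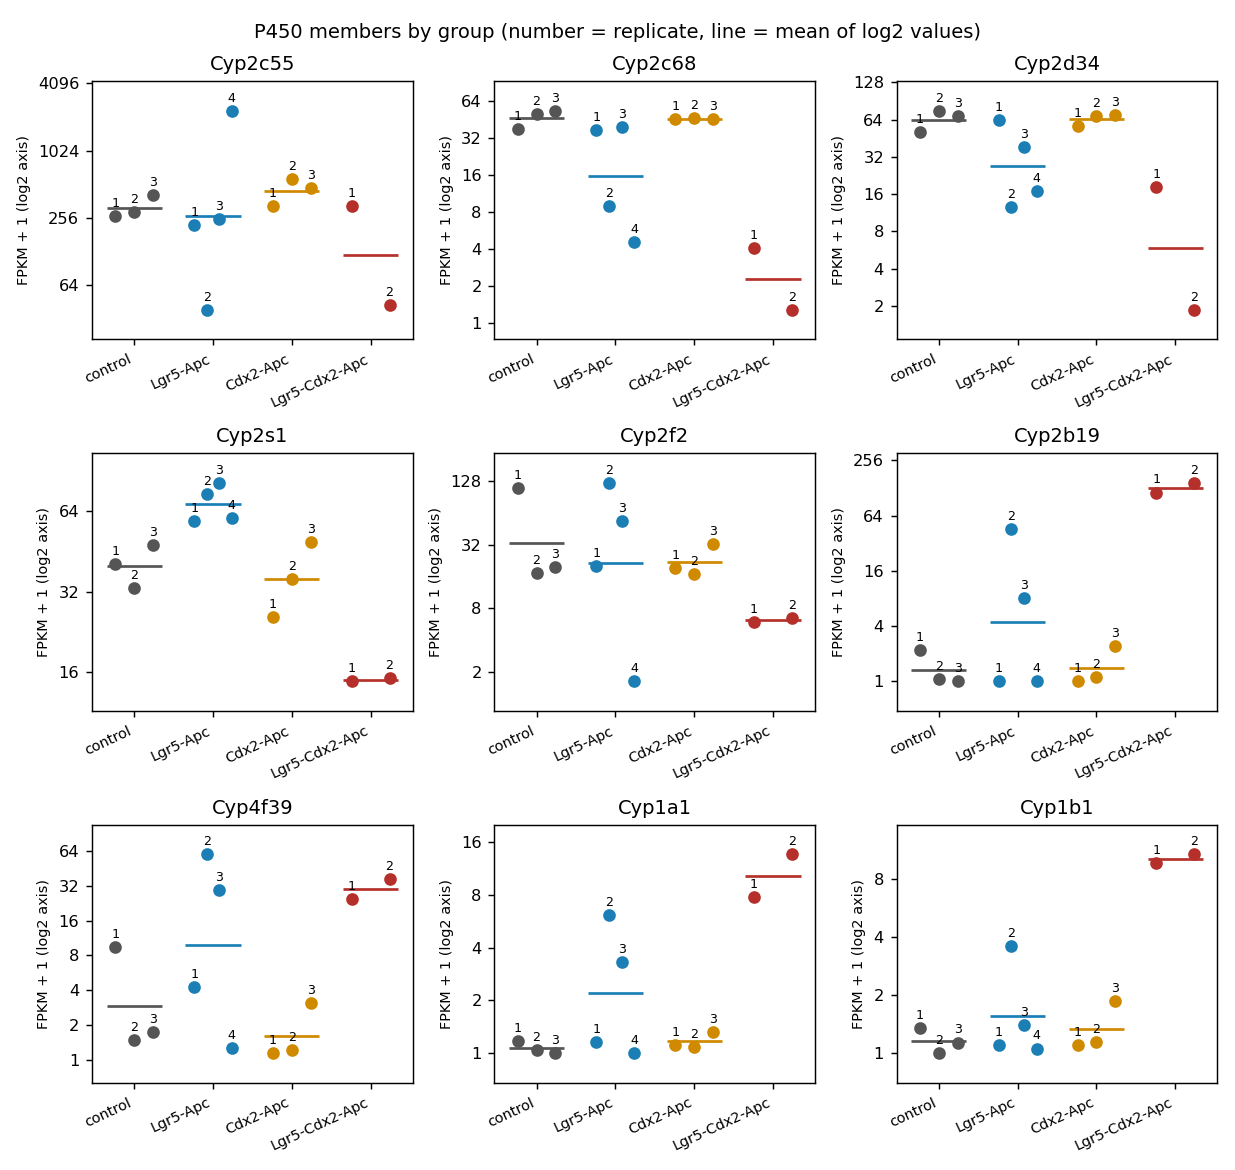
Level of 9 members in each library (points, numbered by replicate) by group, as FPKM + 1 on a log2 axis, with a line at the mean of the log2 values. Cyp2c68 and Cyp2d34 are low in both Lgr5-Cdx2-Apc libraries and in Lgr5-Apc replicates 2 and 4, while Cyp2b19, Cyp1a1 and Cyp1b1 are highest in both Lgr5-Cdx2-Apc libraries.

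Of the 6 skin members, 4 rose in Lgr5-Cdx2-Apc against each of the other 3 groups (Cyp2b19, Cyp2b23, Cyp2g1 and Cyp4f37) and none fell. Cyp2b23, Cyp2g1 and Cyp4f37 reached 1 FPKM in no library outside Lgr5-Cdx2-Apc. They passed the filter only through the group where they were high, so the count of 4 is partly fixed by that filter. Of all genes tested, 10.5%, 5.22% and 12.1% were called higher against control, Lgr5-Apc and Cdx2-Apc. The skin members had a median difference of 2.33 against control. Their summed level was 160 and 196 FPKM in Lgr5-Cdx2-Apc, 3.11 to 75.3 in control, 11.9 to 40.3 in Cdx2-Apc, and 123 and 36.5 in Lgr5-Apc replicates 2 and 3 against 9.13 and 0.603 in replicates 1 and 4. Cyp2e1, which followed the liver genes described later, supplied most of the sum in control (65.3 of 75.3 FPKM in replicate 1) and in Cdx2-Apc (40.1 of 40.3 in replicate 1). Squamous markers moved with the other skin genes, as given above, and their part in the result was not tested beyond the covariate fits.

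Cyp2b19, the arachidonic acid epoxygenase of differentiating keratinocytes, was 113 and 145 FPKM in Lgr5-Cdx2-Apc, 0.0145, 44.9, 7.02 and 0 in Lgr5-Apc, 1.21, 0.0501 and 0 in control and 0, 0.11 and 1.42 in Cdx2-Apc. Both Lgr5-Cdx2-Apc libraries exceeded all others. The rise was called against control (log2 difference 6.61 ± 1.37 (SE), adjusted p = 0.0135), against Cdx2-Apc (log2 difference 6.54 ± 1.37 (SE), adjusted p = 0.0114) and against Lgr5-Apc (log2 difference 4.88 ± 1.30 (SE), adjusted p = 0.0455). The call against Lgr5-Apc was lost under 19 of 28 alternatives, where the adjusted p reached 0.857. Within Lgr5-Apc, the gene was high where squamous markers were high, in replicates 2 and 3. Cyp4f39, the mouse counterpart of the human enzyme that hydroxylates ultra-long fatty acids for skin acylceramides, was 23.5 and 35.7 FPKM in Lgr5-Cdx2-Apc, 3.25, 58.7, 28.4 and 0.275 in Lgr5-Apc, 8.54, 0.48 and 0.757 in control and 0.141, 0.216 and 2.08 in Cdx2-Apc. Its highest value was in a Lgr5-Apc library, and no comparison was called (log2 difference 3.36 ± 1.43 (SE), adjusted p = 0.117). The order of these genes differed by library: Cyp4f39 exceeded Cyp2b19 in Lgr5-Apc replicates 2 and 3, and Cyp2b19 exceeded Cyp4f39 in both Lgr5-Cdx2-Apc libraries.

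The 250 bases before each start are shown for these 2 skin genes, the member that rose most and the one most abundant in the squamous-rich Lgr5-Apc libraries (RefSeq, GRCm38.p6, both on the plus strand, 5′ to 3′, chr7:26756892-26757141 for Cyp2b19 and chr17:32452473-32452722 for Cyp4f39). Capitals mark GCGTG, the dioxin response core, on either strand (CACGC where it lies on the opposite one), which stood 199 and 78 bases before the start of Cyp4f39. None of the searched letters was found before the start of Cyp2b19.
Cyp2b19: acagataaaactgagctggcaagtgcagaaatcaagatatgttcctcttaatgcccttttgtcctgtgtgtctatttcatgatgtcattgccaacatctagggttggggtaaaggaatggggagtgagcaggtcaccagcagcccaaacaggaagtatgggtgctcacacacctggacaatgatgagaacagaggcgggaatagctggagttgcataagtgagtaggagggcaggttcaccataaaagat
Cyp4f39: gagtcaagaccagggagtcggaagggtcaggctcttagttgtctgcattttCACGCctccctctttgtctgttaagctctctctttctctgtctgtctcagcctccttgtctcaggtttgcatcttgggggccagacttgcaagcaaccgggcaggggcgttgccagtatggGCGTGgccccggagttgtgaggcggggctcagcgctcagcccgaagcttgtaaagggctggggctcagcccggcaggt

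Lower skin members were close to absent outside Lgr5-Cdx2-Apc. Cyp4f37 was 5.16 and 4.99 FPKM there, 0, 0.406, 0.393 and 0 in Lgr5-Apc, 0.046, 0 and 0.0333 in control and listed at 0 in all 3 Cdx2-Apc libraries. Its difference had the smallest standard error of the called members (log2 difference 2.57 ± 0.20 (SE), adjusted p = 0.00029), and it kept its call in each of the 27 alternatives in which it was tested. The log2(FPKM + 1) scale compresses values near 0, as in all libraries of the other groups. Both the Cyp4f37 difference and its standard error therefore depend on the pseudocount, and the difference against control ran from 1.0 to 5.37 over the alternatives. Cyp4f37 is 96.1% identical over the aligned part to Cyp4f16, a more abundant gene, which adds uncertainty to its level. Cyp2g1, known from olfactory epithelium, was 4.96 and 2.35 FPKM in Lgr5-Cdx2-Apc, 0, 0.972, 0 and 0 in Lgr5-Apc and at most 0.124 elsewhere (log2 difference 2.10 ± 0.33 (SE), adjusted p = 0.00439). Cyp2b23 was 2.54 and 3.86 in Lgr5-Cdx2-Apc, 0, 0.731, 0 and 0 in Lgr5-Apc and at most 0.04 elsewhere (log2 difference 2.05 ± 0.26 (SE), adjusted p = 0.00189). As all 3 control libraries list Cyp2b23 at 0, the size of that difference depends on the pseudocount. Cyp2e1, the ethanol-oxidising enzyme of liver that skin also makes, was not called and is described with the liver genes.

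The list of genes found in either kind of barrier epithelium split, with Cyp1a1 higher, Cyp2s1 lower and 2 of 4 not called in Lgr5-Cdx2-Apc against control. Cyp2s1, an epithelial P450 made mostly outside the liver, was 13.8 and 14.2 FPKM in Lgr5-Cdx2-Apc, 57.7, 73.1, 80.9 and 59.5 in Lgr5-Apc, 39.7, 32.1 and 46.7 in control and 24.7, 34.6 and 48.3 in Cdx2-Apc. The Lgr5-Apc libraries all lay above, and the Lgr5-Cdx2-Apc libraries all below, those of the other groups. It fell in Lgr5-Cdx2-Apc against Lgr5-Apc (log2 difference -2.18 ± 0.26 (SE), adjusted p = 0.00129), against control (log2 difference -1.42 ± 0.27 (SE), adjusted p = 0.00996) and against Cdx2-Apc (log2 difference -1.24 ± 0.27 (SE), adjusted p = 0.0126), whereas its higher level in Lgr5-Apc was not called against control (log2 difference 0.77 ± 0.23 (SE), adjusted p = 0.404) or against Cdx2-Apc (log2 difference 0.94 ± 0.23 (SE), adjusted p = 0.269). Within Lgr5-Apc, it was higher in the squamous-rich replicates 2 and 3 than in replicates 1 and 4.

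Cyp1a1, the best known target of the aryl hydrocarbon receptor, was 6.74 and 12.6 FPKM in Lgr5-Cdx2-Apc, 0.154, 5.15, 2.3 and 0 in Lgr5-Apc, 0.17, 0.0394 and 0 in control and 0.109, 0.0824 and 0.329 in Cdx2-Apc. It rose against control (log2 difference 3.26 ± 0.66 (SE), adjusted p = 0.0122) and was not called against Lgr5-Apc (log2 difference 2.22 ± 0.62 (SE), adjusted p = 0.0527). Cyp4b1, which acts on fatty acids and some toxins, was 17.3 and 13.1 FPKM in Lgr5-Cdx2-Apc, 1.04, 12.4, 2.77 and 36.1 in Lgr5-Apc, 4.13, 1.16 and 5.18 in control and 3.54, 1.87 and 3.23 in Cdx2-Apc, with no call (log2 difference 1.97 ± 1.00 (SE), adjusted p = 0.176). Its highest value came from Lgr5-Apc replicate 4, a library with almost no squamous signal. Cyp4v3, a fatty acid hydroxylase, was also not called (log2 difference -0.80 ± 0.29 (SE), adjusted p = 0.0774).

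Among the 7 genes of connective tissue and myeloid cells, 5 were tested. Cyp1b1, an Ahr target of mesenchymal cells and keratinocytes, was 8.72 and 9.79 FPKM in Lgr5-Cdx2-Apc, 0.098, 2.59, 0.409 and 0.0582 in Lgr5-Apc, 0.36, 0 and 0.137 in control and 0.104, 0.139 and 0.87 in Cdx2-Apc. Both Lgr5-Cdx2-Apc values exceeded all 10 others, and the rise was called against control (log2 difference 3.15 ± 0.47 (SE), adjusted p = 0.00355) and the other 2 groups. Fibroblast markers summed to 318 and 480 FPKM in Lgr5-Cdx2-Apc and 102 to 350 in control, with 0 of 5 called. Macrophage and neutrophil markers summed to 45.5 and 140 FPKM in Lgr5-Cdx2-Apc, 7.86 to 13.3 in control, 1.86 to 56.6 in Lgr5-Apc and 5.7 to 9.75 in Cdx2-Apc. Of the 4 that were tested, 0 were called against control (median difference 2.60), Adgre1 and Csf1r were called higher against Lgr5-Apc, and S100a8 and S100a9 against Cdx2-Apc. Their part in the level of Cyp1b1 was not tested. Cyp2u1, a hydroxylase of long-chain fatty acids, fell from 2.32, 3.08 and 3.15 FPKM in control to 0.827 and 0.426 (log2 difference -1.25 ± 0.27 (SE), adjusted p = 0.0152), with 2.28, 0.762, 1.28 and 0.956 in Lgr5-Apc and 2.79, 2.44 and 2.25 in Cdx2-Apc. Cyp4f16 fell against Cdx2-Apc, where it was 18.3, 25.1 and 22 FPKM beside 7.51 and 3.49 in Lgr5-Cdx2-Apc (log2 difference -1.87 ± 0.49 (SE), adjusted p = 0.0245), and it was 10.5, 14 and 15.7 in control and 12.3, 3.31, 9.28 and 15.7 in Lgr5-Apc. Whether its differences from the 3 groups differ among themselves was not tested.

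Cyp2f2, a P450 known best from airway club cells, varied widely within groups. It was 108, 16.1 and 18.6 FPKM in control, 19.1, 122, 52.5 and 0.639 in Lgr5-Apc, 18.4, 15.8 and 31.2 in Cdx2-Apc and 4.98 and 5.52 in Lgr5-Cdx2-Apc. Control replicate 1 and Lgr5-Apc replicates 2 and 3 stood high and Lgr5-Apc replicate 4 low. The squamous markers were also higher in those 3 libraries than in the rest of their groups, but Cyp2f2 was low in both Lgr5-Cdx2-Apc libraries, which had more of them. No comparison was called (log2 difference -2.41 ± 1.47 (SE), adjusted p = 0.257).

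Outside the lists, the Cyp2j series and Cyp3a57 rose. Cyp2j12 was listed at 0 in all 3 control libraries, was 0, 2.94, 0.661 and 0 FPKM in Lgr5-Apc and 0, 0 and 0.134 in Cdx2-Apc, and reached 3.8 and 7.89 in Lgr5-Cdx2-Apc (log2 difference 2.71 ± 0.52 (SE), adjusted p = 0.00999, a size that depends on the pseudocount). Cyp2j7 was 2.43 and 4.77 in Lgr5-Cdx2-Apc, 0, 4.18, 1.08 and 0 in Lgr5-Apc and at most 0.244 in the other groups (log2 difference 2.05 ± 0.60 (SE), adjusted p = 0.0393). Cyp2j8 was 1.97 and 5.51 in Lgr5-Cdx2-Apc and at most 0.21 in the 10 other libraries (log2 difference 2.04 ± 0.29 (SE), adjusted p = 0.00249). In Lgr5-Apc replicate 2, Cyp2j7 lay within the range of the Lgr5-Cdx2-Apc libraries and Cyp2j12 below it, while Cyp2j8 stayed near 0. Cyp2j9, present in every library, was 5.62 and 3.9 FPKM in Lgr5-Cdx2-Apc, 0.946, 2.42, 1.04 and 1.58 in Lgr5-Apc, 2.19, 1.74 and 2.07 in control and 1.91, 0.818 and 1.39 in Cdx2-Apc (log2 difference 0.93 ± 0.29 (SE), adjusted p = 0.0481). Cyp3a57 was 4.01 and 11.1 in Lgr5-Cdx2-Apc, 0.0201, 3.85, 1.18 and 0.0606 in Lgr5-Apc and at most 0.123 elsewhere (log2 difference 2.90 ± 0.60 (SE), adjusted p = 0.0134). Cyp4f17 was 5.09 and 5.61 in Lgr5-Cdx2-Apc, 1.38, 4.81, 2.5 and 1.91 in Lgr5-Apc, 1.74, 1.37 and 1.6 in control and 1.33, 1.26 and 2.33 in Cdx2-Apc (log2 difference 1.31 ± 0.34 (SE), adjusted p = 0.0263). The vitamin D hydroxylase Cyp2r1 was level, at 1.23 to 2.71 FPKM across the 12 libraries.

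Neighbouring genes did not all move together. With a gap of at most 1000000 bases between neighbours, the members lay in 17 places on GRCm38, as placed by GENCODE release M21, and 14 of 78 stood in the Cyp2c cluster on chromosome 19 (39007019 to 40187333). There 1 of 10 tested members was called against control in Lgr5-Cdx2-Apc, Cyp2c68, lower. In that comparison, to which the counts below also refer, 8.55% of all genes tested were called lower and 10.5% higher. On chromosome 15 (82370527 to 82794294), 5 of the 6 tested Cyp2d genes were lower. On chromosome 4 (96027534 to 96664154), 4 of the 6 tested Cyp2j genes were higher and none lower. The cluster of 13 members on chromosome 7 (25802475 to 27158668) was mixed: Cyp2b10, Cyp2b23, Cyp2b19 and Cyp2g1 were higher, Cyp2s1 at its edge was lower and 5 of 10 tested were not called. The 8 Cyp4f genes on chromosome 17 (32452723 to 32947402) held Cyp4f37 and Cyp4f17, both higher, between genes that were not called. In the Cyp3a cluster on chromosome 5 (145345279 to 146113287), Cyp3a57 was higher and the other 3 tested were not called. Among the higher members of these clusters, Cyp2b23, Cyp2g1, Cyp2j8, Cyp2j12 and Cyp4f37 passed the filter only through Lgr5-Cdx2-Apc, where they were high. In all, 23 members, 15 of them tested, were at least 95% identical over at least 50% of the shorter transcript to another member, and their levels are uncertain for that reason.

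**Figure D4:**
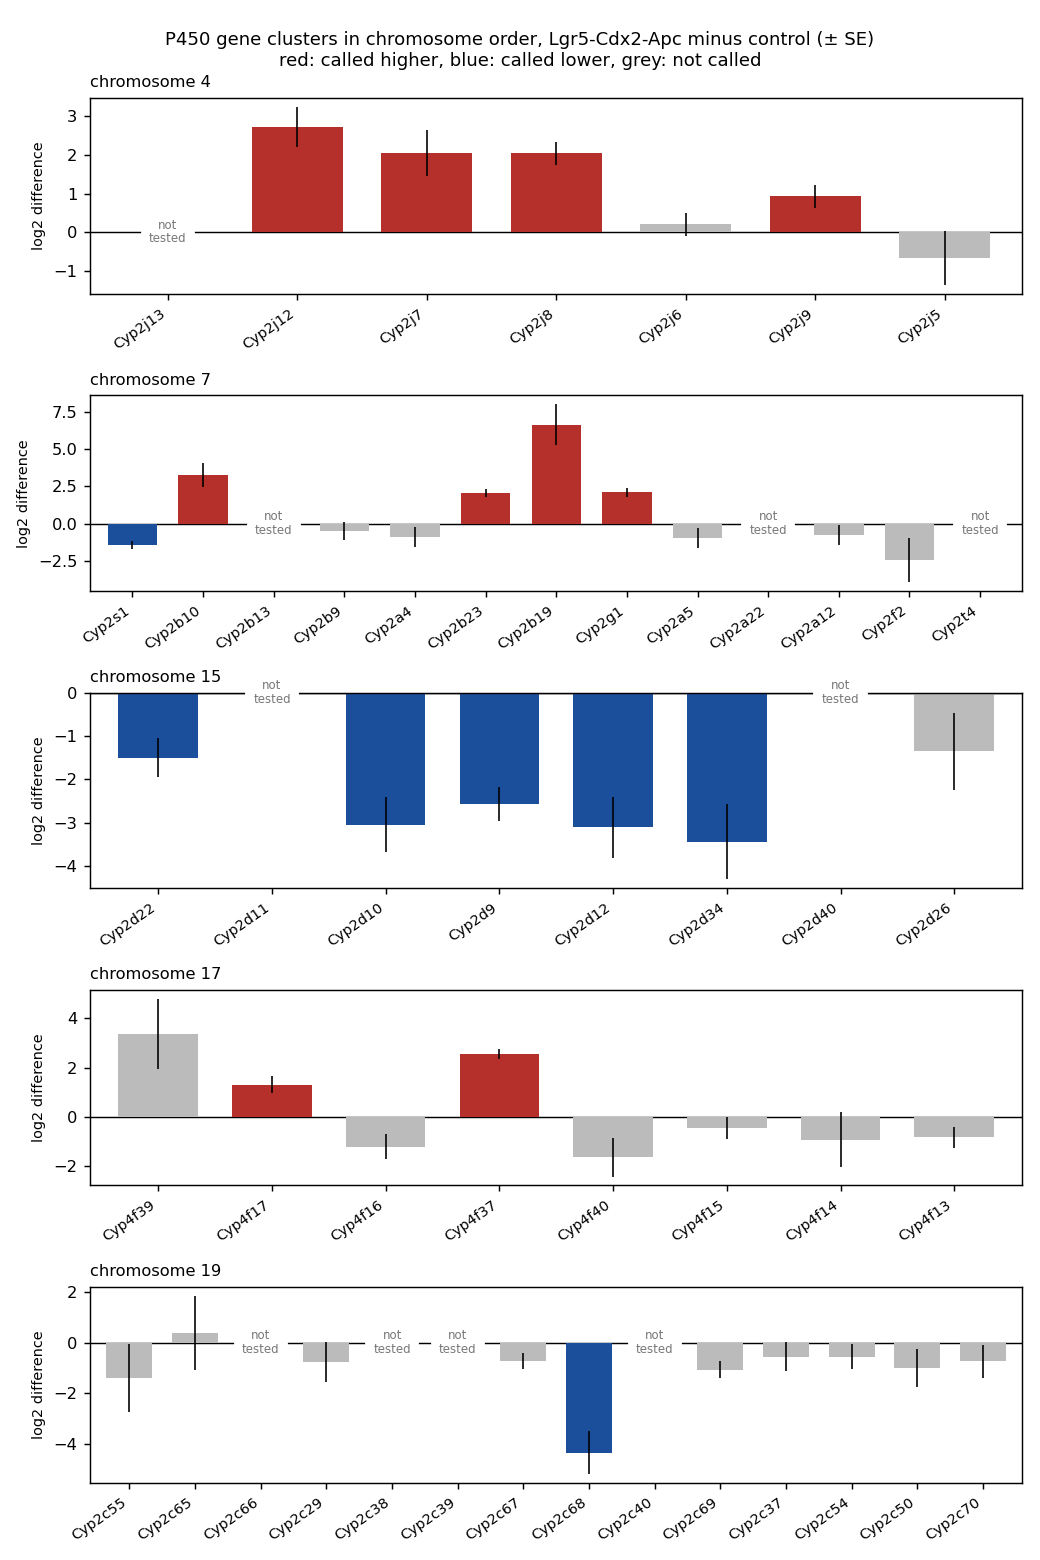
Difference in log2(FPKM + 1) between Lgr5-Cdx2-Apc and control, with its standard error, for the 5 clusters with at least 6 tested members, in chromosome order (red and blue, called higher and lower; grey, not called). The chromosome 15 bars all point down, while the chromosome 7 row holds called bars in both directions.

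Motif letters in the 300-base windows (250 before and 50 after the start) were counted on both strands for the 64 members with a RefSeq promoter, beside all 32851 promoters. GCGTG was in 20.3% of member promoters and 32.4% of all, and in 5 of the 10 members called higher against control that had one (Cyp1a1, Cyp1b1, Cyp2b10, Cyp2j9 and Cyp2j12) and 1 of 4 called lower (Cyp2c68). TATAAA was in 43.8% of member promoters and 13.6% of all, CAAAGTCCA in 15.6% and 0.475%, and TGANTCA, the AP-1 site, in 9.38% and 7.81%. None of these 4 motifs contains another, and a match is a description of the window only.

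A set of 17 members known from liver was put together after the values were seen, because their levels ran in parallel with the hepatocyte secretory gene Alb. Their agreement with Alb was therefore fixed by that choice and carries no information of its own. All 17 were highest in control replicate 1 and second highest in Cdx2-Apc replicate 1, the libraries with 902 and 781 FPKM of Alb, and the other 10 libraries had 4.49 to 174. Their summed level was 225 and 147 FPKM in those 2 libraries and 3.41 to 43.9 in the others. Cyp3a11, the main drug-metabolising Cyp3a of mouse liver, was 66.9, 1.96 and 11.2 FPKM in control, 2.14, 0.532, 3.13 and 2.82 in Lgr5-Apc, 54, 12.1 and 13.5 in Cdx2-Apc and 7.73 and 3.14 in Lgr5-Cdx2-Apc. Cyp2e1 was 65.3, 2.58 and 15.4 FPKM in control, 5.87, 17.3, 0.666 and 0.328 in Lgr5-Apc, 40.1, 11.5 and 12.1 in Cdx2-Apc and 10.6 and 3.87 in Lgr5-Cdx2-Apc. Per 1000 FPKM of Alb, in the 6 libraries with at least 100, Cyp2e1 was 51.4 to 94.7 and Cyp3a11 66.4 to 102. Other ratios spread more over the same libraries, such as 2.23 to 8.56 for Cyp2c37, 3.48 to 11.6 for Cyp2a4 and 1.36 to 4.75 for Cyp2c67. In the libraries with less Alb, Cyp3a11 reached 296 and 628 per 1000 in Lgr5-Apc replicates 3 and 4. Cyp2e1 reached 888 per 1000 of Alb in Lgr5-Apc replicate 2, where adipocyte markers summed to 155 FPKM against at most 24.9 in the other libraries. The other liver members were low: Cyp2c29 reached 12.6 FPKM and Cyp2c50 10.1, and no other exceeded 8.84. None of the 17 was called in any comparison. Control replicate 1 also stood apart in having Xist (154 FPKM) together with the Y-linked gene Eif2s3y (3.06). Without these 2 Alb-rich libraries, 16 members were called against control, 15 against Cdx2-Apc and 7 against Lgr5-Apc, beside 12.2%, 10.6% and 4.42% of all genes, as an alternative chosen after seeing the data.

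**Figure D5:**
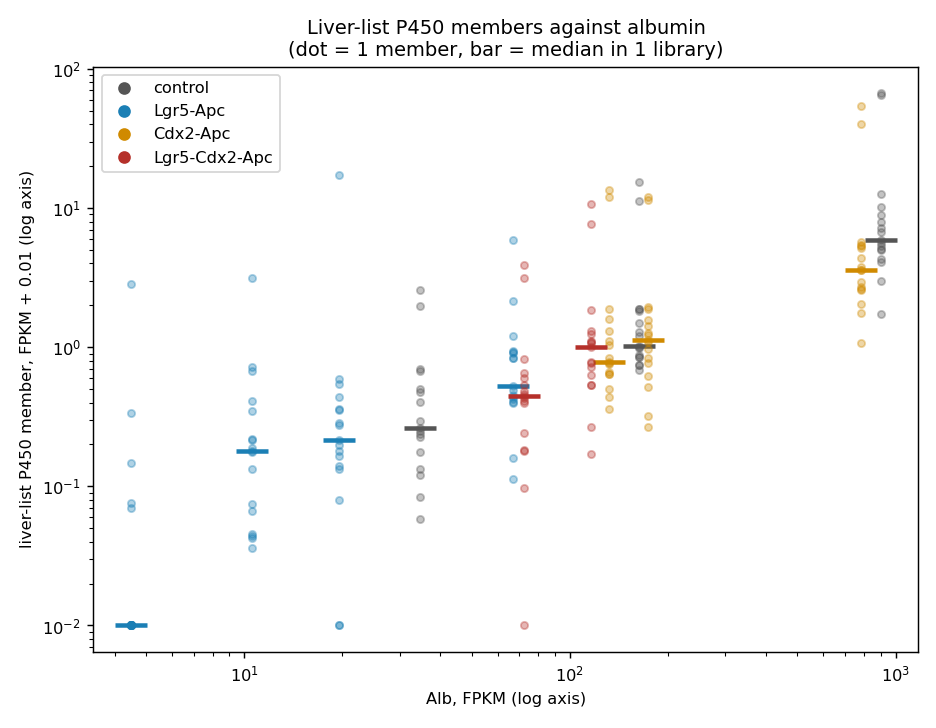
FPKM + 0.01 of the 17 liver-type members (dots, with a bar at their median) against the FPKM of Alb in the same library, both on log axes, coloured by group. The 2 libraries with 902 and 781 FPKM of Alb have the highest medians, and Lgr5-Apc replicate 4, at 4.49, has most members listed at 0. The members were chosen for running in parallel with Alb.

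With 1 driver, no member was called. For Lgr5-Apc against control, limma called 0 of 57 members and 2 of all genes (0.0115%, both lower), with 12 members, 1 higher and 11 lower, and 1881 genes at an unadjusted p under 0.05. The median member difference was -0.52, against 0.03 over all genes. It was -1.13 over the 17 liver members, -0.24 over the gut members and 0.20 over the skin members, and hepatocyte markers, which summed to 12.8 to 152 FPKM in Lgr5-Apc and 110 to 1568 in control, had a median of -2.31. Of the 11 lower members, Cyp2a12, Cyp2a4, Cyp2a5, Cyp2c44 and Cyp3a11 belong to the liver list, which was put together after the values were seen. The part of the hepatocyte signal in the shift was not tested. The 2 members with the smallest p that were lower were Cyp2d9, given above, and Cyp2u1 (log2 difference -0.77 ± 0.22 (SE), adjusted p = 0.404), and those that were higher were Cyp2s1, given above, and Cyp1a1 (log2 difference 1.04 ± 0.55 (SE), adjusted p = 0.495). For Cdx2-Apc against control, limma called 0 members and 7 genes (0.0403%; 0.0288% higher and 0.0115% lower), with 1 member and 285 genes at an unadjusted p under 0.05. That member was Cyp2w1, which was lower (log2 difference -0.90 ± 0.39 (SE), adjusted p = 1), and the next were Cyp2j9 on the lower side (log2 difference -0.36 ± 0.26 (SE), adjusted p = 1) and Cyp4f16 (log2 difference 0.67 ± 0.44 (SE), adjusted p = 1) and Cyp2d9 (log2 difference 0.39 ± 0.36 (SE), adjusted p = 1) on the higher side. For Lgr5-Apc against Cdx2-Apc, 0 members and 6 genes (0.0346%; 0.00576% higher and 0.0288% lower) were called, with 15 members (1 higher and 14 lower) and 1800 genes at an unadjusted p under 0.05. Cyp2d9 came closest (log2 difference -2.21 ± 0.34 (SE), adjusted p = 0.0787), and it did not overlap between the groups. Cyp2d12 was the next lower member (log2 difference -2.18 ± 0.59 (SE), adjusted p = 0.334), and Cyp2s1 and Cyp4f39 (log2 difference 2.60 ± 1.20 (SE), adjusted p = 0.485) were the higher members with the smallest p. Under 4 of the 28 alternatives 1 member was called in that comparison, lower in Lgr5-Apc. These zeros do not show that the groups were alike: in Lgr5-Apc the standard error for Cyp2b19 was 1.15 against control on the log2 scale, beside a difference of 1.73.

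The genes that regulate, supply and follow the P450 enzymes were counted from lists. Of 16 sensors and regulators, 3 rose and 3 fell in Lgr5-Cdx2-Apc against control, where 10.5% of all genes tested rose and 8.55% fell. Ahr was 30.3 and 27.7 FPKM there and 7.78 to 8.66 in control (log2 difference 1.71 ± 0.33 (SE), adjusted p = 0.00998), and the partner receptor Rxra (log2 difference 1.74 ± 0.36 (SE), adjusted p = 0.0137) and the Ahr repressor Ahrr also rose. Hnf4g (log2 difference -2.85 ± 0.64 (SE), adjusted p = 0.0169), Hnf4a and Nr1i2 fell: Hnf4a was 45.6 and 3.67 FPKM beside 94.6 to 147 in control, and Nr1i2 was 8.11 and 0.684 beside 15.1 to 23.5. Ahr and Ahrr rose in the same libraries as the Ahr targets Cyp1a1 and Cyp1b1, but Cyp1a1 was not called against Lgr5-Apc. Cyp1a2, also of family 1 and on the liver list, was not called and lay lower (log2 difference -0.97 ± 0.58 (SE), limma adjusted p = 0.249). Tiparp, on the list of sensors, was not called either, at 6.36 and 12.9 FPKM beside 5.06 to 6.07 in control, and Cyp2s1 fell. This is a description of values and not a test of a link. Of 13 redox partners and haem genes, beside the same shares of all genes, 1 rose (Hmox1, which degrades haem) and 1 fell (Urod, a step of haem synthesis). Por, the shared electron donor, was 33.9 and 26.9 FPKM in Lgr5-Cdx2-Apc beside 37 to 58 in control. Its log2 difference was -0.67 ± 0.24 (SE) against control (limma adjusted p = 0.0695), -0.68 ± 0.24 against Cdx2-Apc (0.0603) and -0.92 ± 0.22 against Lgr5-Apc (0.035, called), and whether these differ was not tested.

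Of 30 conjugating enzymes and transporters, which act after the P450 step, 0 were called higher and 7 lower against control, with a median difference of -1.48. The list was not uniform. Among those not called, Ugt1a1 was 58.8 and 71.3 FPKM in Lgr5-Cdx2-Apc beside 4.97 to 24.7 in control. Ephx3 was 17.3 and 38.9 FPKM there beside at most 3.47 in control. Of all genes tested, 10.5% rose and 8.55% fell in that comparison. The 7 that fell were Gstm1, Gsta3, Gstt1 and Gstp1, which attach glutathione, Sult1b1 and Sult1c2, which attach sulfate, and Ugt2b34, which attaches glucuronic acid. Gstm1 was 39.3 and 44.1 FPKM in Lgr5-Cdx2-Apc and 114 to 146 in control (log2 difference -1.63 ± 0.18 (SE), adjusted p = 0.00104). Of 15 genes of the acylceramide pathway, in which Cyp4f39 works, 6 rose and 1 fell (Degs2), with a median difference of 2.98. Against Cdx2-Apc 7 rose and 1 fell (beside 12.1% and 11.7% of all genes), and against Lgr5-Apc 0 rose and 1 fell (beside 5.22% and 3.77%). Elovl4, which makes the ultra-long fatty acids, was 262 and 748 FPKM in Lgr5-Cdx2-Apc, 323 and 154 in Lgr5-Apc replicates 2 and 3, and at most 13.2 in the other libraries. Aloxe3, an epidermal lipoxygenase of the same pathway, was 28.9 and 31.2 FPKM in Lgr5-Cdx2-Apc and at most 0.172 in control (log2 difference 4.80 ± 1.12 (SE), adjusted p = 0.0191). None of these 4 lists had a call in Lgr5-Apc or Cdx2-Apc against control, or between those groups.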

How the data were processed

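Total RNA of mouse rectum (column purification with DNase, directional libraries, per the labels' protocols) was sequenced in 12 samples. The deposited table gives FPKM per gene, which the authors made with STAR, Cufflinks and Cuffdiff on mm10, per the submitters' processing notes. Versions, annotation and any rescaling are not given in the sources used here. Whole reads could not be recovered from the FPKM values, so the depth in reads is unknown and no counting interval or floor is given. FPKM values are relative within a library, so a very abundant gene lowers the others.

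Each column was mapped to its sample by name, with 0 per-sample columns unmapped. The table had 27831 lines, of which 25 held spreadsheet dates as names. Repeated symbols were reduced to 1 line each, leaving 27785 genes. The 17360 genes that reached 1 FPKM in 2 or more libraries were tested as log2(FPKM + 1) with limma 3.58.1 in R 4.3.3: 1 model with a term for group over all 12 libraries, which share an estimate of the spread, a mean-variance trend, 2-sided tests and Benjamini-Hochberg adjustment over all genes tested for each of 6 comparisons. The procedure was tested on simulated data. Differences carry their standard error (SE). With 2 Lgr5-Cdx2-Apc libraries, the spread in that group rests on little data.

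The members and lists were chosen with earlier results of these data known, and the liver list after the values were seen. Genes are named by rule: the 12 members with the highest value in a library, those called, the tested gut and skin members, and those with the smallest p in each comparison. Cyp2r1, Cyp4b1, Cyp4v3 and the further liver genes fall outside that rule; they were picked with their levels already known. Lists are described by counts and medians, without a test of the list. Gene positions and transcript identity come from GENCODE M21 on GRCm38, and promoters from RefSeq on GRCm38.p6. Alternatives covered the pseudocount, the filter, scaling, library weights, robust moderation, the samples in the model, composition covariates, a replicate block and leaving out each library. Replicate numbers do not pair the samples by any label.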

Additional observations from a re-analysis of the deposited data

Results flagged for a closer look

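In Lgr5-Apc, the group with 4 libraries, 6 of the 57 tested members had 1 library far from the other 3, by Dixon's criterion at 95% (a gap above 0.829 of the group's range). Chance alone gives about 1 in 20 such cases where values are normally distributed. The libraries concerned were replicates 2 and 4, which also stood at the extremes of the squamous markers in that group. In replicate 4, Cyp2c65, a gut gene, was 151 FPKM beside 2.44 to 4.48 in the others, and Cyp3a44 was 9.39 beside 0.0304 to 0.242. The liver-type gene Cyp2a5 was listed at 0 there beside 0.404 to 0.48. In replicate 2, the skin genes Cyp2b23 and Cyp2g1 were 0.731 and 0.972 FPKM and listed at 0 in the other 3 libraries, and Cyp4f15 was 1.07 beside 0.141 to 0.197. With 3 libraries at 0, Cyp2b23 and Cyp2g1 would be flagged at any value above 0, so the rate of 1 in 20 does not apply to them. Cyp2c65, Cyp3a44 and Cyp2a5 each have a near-identical relative, so their own levels are uncertain.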

How the results depend on the processing

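Counts of called members were recomputed under 28 alternatives, 3 of them chosen after seeing the data. For Lgr5-Cdx2-Apc against control (21 called, 36.8% of members), a filter of 5 FPKM gave 12 of the 33 members it tested (36.4%, beside 21.1% of all genes). The squamous covariate gave 10 (17.5% beside 3.39%) and the columnar covariate 1 (1.75% beside 0.472%). Leaving out 1 library of another group gave 13 (22.8% beside 5.73%) to 25 (43.9% beside 27%), and the count was lower without Lgr5-Cdx2-Apc replicate 2. Against Lgr5-Apc (10, 17.5%), the 5 FPKM filter gave 2 of 33 (6.06%, beside 6.5% of all genes). A model of only the groups compared gave 2 (3.51% beside 0.933%), the columnar covariate 1 (1.75% beside 0.536%) and the added hepatocyte covariate 6 (10.5% beside 3.68%). Library weights gave 16 (28.1% beside 22.1%), and leaving out Lgr5-Apc replicates 2 and 4 together, also added, 21 (36.8% beside 23.7%). Leaving out 1 library of another group than Lgr5-Cdx2-Apc gave 6 to 21 (10.5% to 36.8%), and the count was lower without Lgr5-Cdx2-Apc replicate 2. Against Cdx2-Apc (22, 38.6%), the 5 FPKM filter gave 14 of 33 (42.4%, beside 27.8% of all genes). The squamous covariate gave 6 (10.5% beside 1.99%) and the columnar covariate 1 (1.75% beside 0.409%). Leaving out 1 library of another group than Lgr5-Cdx2-Apc gave 14 (24.6% beside 8.95%) to 26 (45.6% beside 30.7%), and the count was lower without Lgr5-Cdx2-Apc replicate 2. For Lgr5-Apc against Cdx2-Apc (0), a pseudocount of 5, the columnar covariate and library weights each gave 1 (1.75% of members, beside 0.0461%, 0.0461% and 0.323% of all genes). Leaving out 1 library gave 0 to 1, with 1 called without Lgr5-Apc replicate 1 (beside 0.0806% of all genes). With the columnar covariate the differences from Cdx2-Apc changed sign for Cyp2j7, to -0.04, and for Cyp4f16, to 0.10. The stricter filter tests fewer genes, and leaving out a library leaves fewer samples; for the other settings the cause was not tested.

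Same-numbered samples of different groups were not paired: over 15 pairs, the correlation of their deviations ran from -0.301 to 0.422 (median -0.02), with 5 over 0.1. A replicate block gave 22, 6 and 26 called members against control, Lgr5-Apc and Cdx2-Apc (38.6%, 10.5% and 45.6%, beside 17.3%, 3.34% and 23.2% of all genes). Depth in reads is unknown, so members near 0 cannot be separated from undetected ones.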
